A study of Drosophila melanogaster with 6 samples.

Results

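Mucin-type O-glycosylation begins in the Golgi, where polypeptide N-acetylgalactosaminyltransferases (GalNAc-transferases, Pgants in Drosophila) move N-acetylgalactosamine from its UDP-linked donor onto serines and threonines of secreted and membrane proteins. A core 1 galactosyltransferase such as C1GalTA then adds galactose and makes the core 1 glycan, known as the T antigen, which fly enzymes can cap with glucuronic acid. In larval salivary glands the best known products of this pathway are glue mucins. They are packed into secretory granules and later fix the pupal case to a surface. The genes described here are 9 Pgant genes (Pgant2 to Pgant9 and Pgant35A) and C1GalTA, 10 genes of the 17493 in the count table. They were chosen by name: 9 were found by symbol, and Pgant9 was found by its identifier, FBgn0050463, because the table lists that gene under its older symbol, CG30463. All 10 had enough counts to be tested.

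Feeding early third-instar larvae of the strain y1 w67c23 were raised at 25 °C and dissected 4 days after egg laying. The data come from 6 RNA-seq libraries of their tissues. Of these, 3 libraries hold salivary glands (SG), whose cells replicate their genome without dividing, and 3 hold brains plus imaginal discs (B-D), whose cells divide by mitosis. The study used this pair of tissues to compare endocycling with mitotically cycling cells, and its methods describe both tissues as taken from the same larvae in 3 biological replicates. No transgene or treatment was involved, all larvae shared one strain, and B-D is a mixture of several organs. Levels are given in CPM, a gene's count rescaled to a common library total, after TMM scaling, which uses a trimmed mean of log ratios between libraries. A gene was called higher or lower when edgeR's quasi-likelihood test gave an adjusted p of 0.05 or less over all 11369 genes tested and the log2 fold change of SG over B-D was at least 0.5 in size.

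Total counts were 45023997 to 55892356 in the SG libraries and 45370626 to 56583711 in the B-D libraries, so a floor of 3 counts stood at 0.0809 to 0.0968 CPM in SG and at 0.0364 to 0.0452 CPM in B-D. Of 11 salivary gland markers, 7 were called higher in SG and the other 4, all glue genes, were not called, while 10 of 10 neuron markers and 7 of 8 disc markers were called lower in SG and 1 disc marker, eyg, was called higher. None of the 11 gland markers was at 0 counts in an SG library. The fork head gene fkh, a salivary gland identity factor, stood at 215, 211 and 237 CPM in SG, against 18.0, 18.0 and 21.3 CPM in B-D. All 7 fat body markers were also called higher in SG, with a summed level of 187061 to 278988 CPM in SG and 712 to 4365 CPM in B-D, and none was at 0 in any library. Their part in the results below was not tested. In bulk tissue, fewer cells of a type and less RNA of a gene per cell cannot be told apart.

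Of the 10 enzyme genes, 6 were called higher in SG, where 34.5% of all genes tested were called higher. Pgant6, Pgant7, Pgant5, Pgant9, Pgant8 and Pgant3 made up this set, with differences that ran from 2.17-fold to 20.2-fold. Another 2 genes, Pgant2 and C1GalTA, were called lower in SG, where 35.3% of all genes were called lower. Pgant4 and Pgant35A were not called. The libraries of both tissues did not overlap in 8 of the 10 genes, and 81.2% of all genes tested had no overlap either. The median log2 fold change was 1.59 over the 10 genes and -0.03 over all genes tested. With Pgant9 left out, as a search by symbol alone would do, 5 of 9 genes were called higher.

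**Figure D1:**
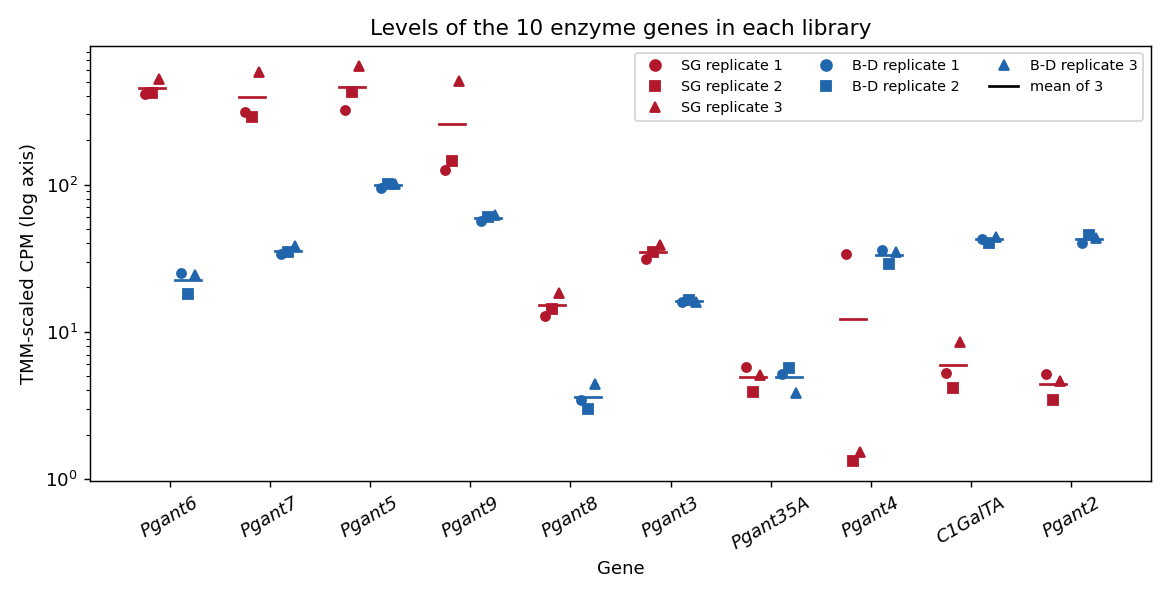
TMM-scaled CPM (log axis) of each of the 10 enzyme genes in the 6 libraries, with SG in red at the left of each gene, B-D in blue at the right, one symbol per replicate number and a bar at the mean of 3. Pgant6 lay at 414 to 523 CPM in SG and at 18.0 to 25.0 CPM in B-D, Pgant4 was split among the SG libraries, and Pgant35A overlapped between tissues.

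Pgant6 showed the widest separation. This GalNAc-transferase gene lies on chromosome arm 3L from 2782255 to 2786010 of the Release 6 assembly and has 4 exon blocks. It stood at 414, 421 and 523 CPM in SG, against 25.0, 18.0 and 24.3 CPM in B-D, so that the lowest SG library was far above the highest B-D library. Its log2 fold change was 4.34 ± 0.19 (SE), 20.2-fold, with an adjusted p of 3.17e-05 by edgeR. Only 4.04% of all genes tested had a larger log2 fold change.

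Pgant7 is a transferase known for acting on peptides that already carry GalNAc. The gene (chromosome X, 18495067 to 18499986) stood at 309, 289 and 582 CPM in SG, against 33.7, 34.9 and 38.3 CPM in B-D, a log2 fold change of 3.46 ± 0.31 (SE) with an adjusted p of 1.83e-04. The SG libraries did not agree closely among themselves, with replicate 3 well above the other two, but every one was above all B-D libraries. Pgant5 (2L, 5072170 to 5093592) encodes a transferase that acts on unmodified peptides and is required in the fly digestive tract. Its level was 319, 425 and 641 CPM in SG, against 94.1, 100.4 and 101.5 CPM in B-D. This was 4.68-fold higher in SG (log2 fold change 2.23 ± 0.26, SE, adjusted p = 5.02e-04), and again SG replicate 3 was the highest library.

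Pgant8 and Pgant3 were higher in SG from a lower base. Pgant8 (3L, 15683872 to 15686598) stood at 12.8, 14.3 and 18.5 CPM in SG, against 3.46, 2.98 and 4.41 CPM in B-D, with a log2 fold change of 2.07 ± 0.22 (SE) and an adjusted p of 3.40e-04. Of its exon length, 10.6% lies opposite the gene CG34452 on the other strand, and since the strand setting of the counting is not given in the sources used here, reads of that stretch cannot be assigned with certainty. Pgant3 (2R, 7057654 to 7061732) encodes the transferase known for glycosylating the extracellular matrix protein Tiggrin and for integrin-dependent adhesion of the wing layers. It had 31.3, 34.9 and 38.6 CPM in SG, against 15.9, 16.4 and 16.0 CPM in B-D, and the log2 fold change was 1.12 ± 0.10 (SE, adjusted p = 1.95e-04). No SG library overlapped a B-D library in either gene.

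Pgant9 was called higher in SG, but the size of the difference rested on a single library. The gene (2R, 16673235 to 16732916) has 5 annotated transcripts, and its enzyme is known for splice forms that glycosylate the glue mucin Sgs3 and shape the secretory granules of the salivary gland. It stood at 125, 144 and 503 CPM in SG, against 56.6, 60.0 and 61.8 CPM in B-D. All SG libraries were above all B-D libraries, and SG replicate 3 was more than 3 times the other two. The log2 fold change was 2.12 ± 0.57 (SE) with an adjusted p of 0.0146 by edgeR, and 1.20 with an adjusted p of 2.80e-04 without SG replicate 3. Counts are summed per gene here, so the splice forms were not told apart.

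The glue genes differed between the SG libraries in the same order as Pgant9. The summed level of 7 glue genes (Sgs1, Sgs3, Sgs4, Sgs5, Sgs7, Sgs8 and Eig71Ee) was 491, 15327 and 73611 CPM in SG, against 0.96, 247 and 553 CPM in B-D. Sgs3, the glue mucin that Pgant9 is known to modify, had 11.4, 2284 and 9449 CPM in SG, against 0.24, 29.5 and 35.3 CPM in B-D. The spread of Sgs3 was thus far wider than that of Pgant9, of which SG replicates 1 and 2 were close together while their Sgs3 levels were not. The fat body marker Fbp1 had 23.6, 135 and 642 CPM in SG, against 0.75, 0.89 and 8.74 CPM in B-D. The 7 fat body markers together, Fbp1 among them, ran in the other order, with 278988, 226367 and 187061 CPM in SG. In B-D they summed to 4365, 712 and 1659 CPM. The part of the glue genes or of Fbp1 in the Pgant9 level was not tested.

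Over all 6 libraries Pgant2 was the most strongly lowered transferase. Without SG replicate 1, Pgant4 was lowered further, with a log2 fold change of -4.53 against -3.40 for Pgant2. The Pgant2 gene lies on 2L from 3404460 to 3426719, and its product catalyses the same first step as the other Pgants. It stood at 5.18, 3.42 and 4.64 CPM in SG, against 40.2, 45.2 and 43.4 CPM in B-D, with no overlap and little spread within either tissue. The log2 fold change was -3.28 ± 0.18 (SE), which is 9.71-fold lower in SG, with an adjusted p of 4.42e-05 by edgeR. Of all genes tested, 11.8% had a lower log2 fold change.

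Pgant4 split the SG libraries. Its enzyme is known from the larval gut, where it glycosylates the cargo receptor Tango1 and is needed for the secretion that builds the peritrophic matrix, the lining of the gut. The gene lies on 2L from 3472603 to 3475338, 45.9 kb from Pgant2. It stood at 33.8, 1.32 and 1.54 CPM in SG (1253, 41 and 53 counts), against 36.0, 29.1 and 35.0 CPM in B-D. SG replicate 1 was inside the B-D range, whereas replicates 2 and 3 were far below it. The log2 fold change was -1.45 ± 1.22 (SE) with an adjusted p of 0.317, and the gene was not called. Without SG replicate 1 the log2 fold change was -4.53 with an adjusted p of 2.61e-04, so that 3 of the 10 genes were then called lower and 6 higher, against 34.9% and 33.6% of all genes in that fit.

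Some genes of the peritrophic matrix showed the same split. A list of 7 such genes (Peritrophin-15a, Peritrophin-15b, Muc26B, Muc96D, obst-F, obst-I and obst-J), put together after the values had been seen, summed to 3093, 1.07 and 1.02 CPM in SG, against 2807, 1783 and 2989 CPM in B-D. None of the 7 was at 0 counts in SG replicate 1 or in B-D, while 3 were at 0 in SG replicate 2 and 2 in SG replicate 3. Peritrophin-15a, a chitin-binding protein of the gut lining, had 772, 0.13 and 0.03 CPM in SG, against 611, 359 and 703 CPM in B-D, and the values of both low libraries were at or near the floor. None of the 7 was called in the comparison of all libraries. The part of gut tissue in the Pgant4 level was not tested.

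**Figure D2:**
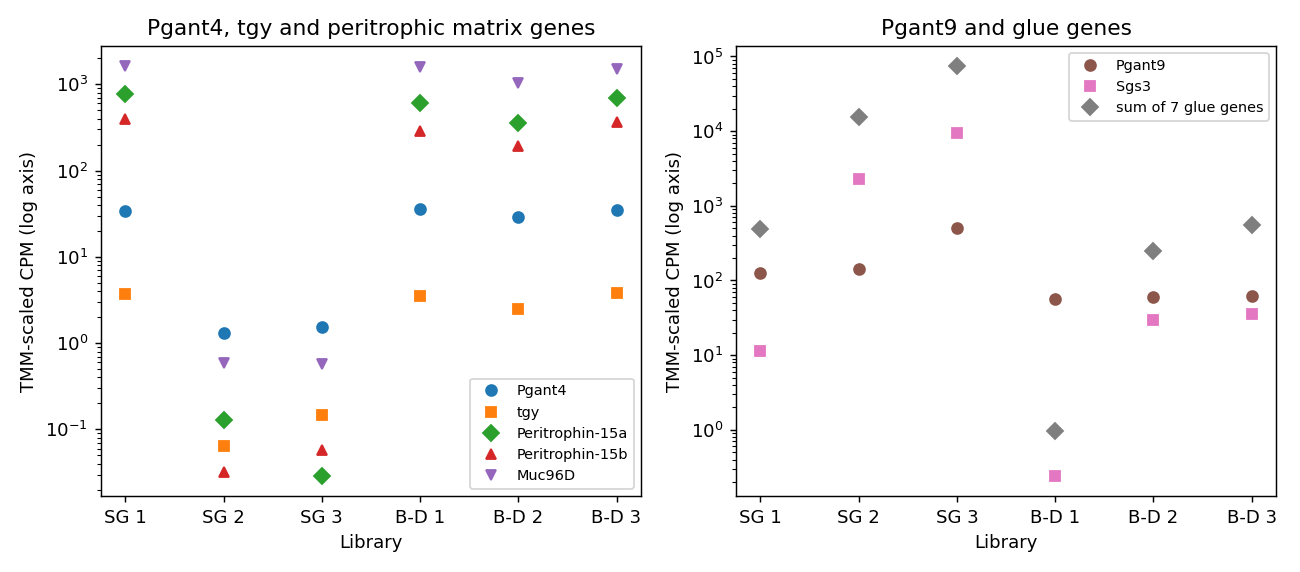
TMM-scaled CPM (log axes) in the 6 libraries, SG left of B-D, of Pgant4, tgy and 3 peritrophic matrix genes (left) and of Pgant9, Sgs3 and the sum of 7 glue genes (right). In SG replicates 2 and 3 Pgant4 was at 1.32 and 1.54 CPM and the peritrophic matrix genes were below 1 CPM, and Pgant9 was highest in SG replicate 3, at 503 CPM.

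Pgant35A overlapped between tissues. It is known for its role in the tubes of the fly tracheal system, and the gene (2L, 14359252 to 14361411) is a single exon. It had 5.77, 3.87 and 5.08 CPM in SG, against 5.20, 5.65 and 3.86 CPM in B-D. Its log2 fold change was 0.002 ± 0.23 (SE) with an adjusted p of 0.994. An annotated antisense transcript, asRNA:CR43463, covers 93.5% of its exon, so with the strand setting unknown the reads of this pair cannot be told apart and the level is uncertain.

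C1GalTA, the enzyme of the next step, was called lower in SG. The gene (2L, 8943455 to 8951216) encodes the main core 1 galactosyltransferase of the fly, known for its role in the nervous system and in blood cells. It stood at 5.26, 4.16 and 8.56 CPM in SG, against 42.8, 40.3 and 44.2 CPM in B-D. All SG libraries were below all B-D libraries, and the log2 fold change was -2.82 ± 0.28 (SE), 7.07-fold lower in SG, with an adjusted p of 2.49e-04 by edgeR.

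The scaling of the libraries matters for the genes with small differences. TMM factors were 0.664 to 0.700 in SG and 1.458 to 1.466 in B-D, and scaling by library size alone shifted the median log2 fold change of all genes by -1.10. Under that scaling 14.0% of all genes were called higher in SG and 62.5% lower. Of the 10 enzyme genes, 4 (Pgant5, Pgant6, Pgant7 and Pgant8) were then called higher and 3 (Pgant2, Pgant35A and C1GalTA) lower. Pgant6 kept a log2 fold change of 3.24 and Pgant7 of 2.38, whereas Pgant3 stood at 0.02 (adjusted p = 0.864), Pgant9 at 1.04 (adjusted p = 0.138) and Pgant35A at -1.10.

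**Figure D3:**
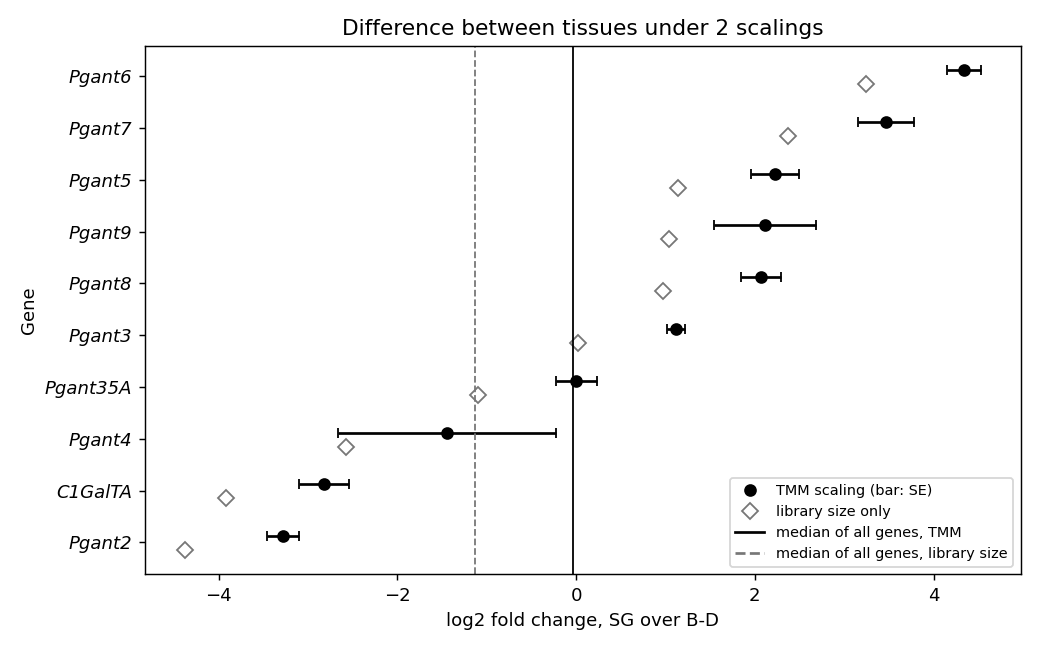
Log2 fold change of SG over B-D of the 10 enzyme genes with TMM scaling (filled circles, bars of 1 SE) and with library size only (open diamonds), and the median of all genes tested under each scaling (solid and dashed lines). The diamonds lie about 1.1 to the left of the circles, and for Pgant3, Pgant9 and Pgant35A the call changed.

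Levels can be compared between genes only per length, so each CPM was divided by the exon length in kb given in the count table. In SG the order of mean CPM per kb was Pgant6 (161 ± 21.6), Pgant7 (107 ± 44.7), Pgant5 (102 ± 36.1), Pgant9 (42.2 ± 34.9), Pgant3 (12.1 ± 1.27), Pgant8 (6.90 ± 1.34), Pgant4 (4.80 ± 7.35), C1GalTA (2.52 ± 0.96), Pgant35A (2.27 ± 0.44) and Pgant2 (1.23 ± 0.25, SD, n = 3 throughout). The ranges of neighbours overlapped between Pgant6 and Pgant7, Pgant7 and Pgant5, Pgant5 and Pgant9, and C1GalTA and Pgant35A, although Pgant6 was above Pgant7 in each SG library. Pgant4 had no settled place, with 13.3 CPM per kb in SG replicate 1 and 0.52 and 0.60 in the others. In B-D the order was Pgant5 (21.7 ± 0.89), C1GalTA (17.8 ± 0.84), Pgant4 (13.1 ± 1.47), Pgant2 (12.0 ± 0.71), Pgant9 (9.75 ± 0.44), Pgant7 (9.72 ± 0.64), Pgant6 (7.96 ± 1.36), Pgant3 (5.59 ± 0.09), Pgant35A (2.27 ± 0.43) and Pgant8 (1.64 ± 0.33). In B-D the neighbours Pgant4 and Pgant2 overlapped, as did Pgant9 and Pgant7, and Pgant35A and Pgant8. Pgant2 had the lowest mean of the 10 genes in SG and was among the 4 highest in B-D. In SG replicates 2 and 3 Pgant4 was below it, at 0.52 and 0.60 CPM per kb against 0.96 and 1.30.

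The summed level of the 9 Pgant genes was 356, 367 and 594 CPM per kb in SG, against 82.9, 81.6 and 86.8 CPM per kb in B-D, 5.24-fold higher on average. A gene's share of this sum does not depend on how the libraries are scaled. Pgant6 held 37.8 ± 5.64% of the sum in SG and 9.48 ± 1.49% in B-D, and Pgant7 held 24.0 ± 2.66% in SG and 11.6 ± 0.47% in B-D (SD, n = 3 each). Together with Pgant5, which held 23.0 ± 2.97% in SG and 25.9 ± 1.08% in B-D, these genes were the 3 largest parts of the sum in SG. Pgant2, in contrast, held 0.295 ± 0.10% in SG and 14.4 ± 1.02% in B-D.

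The other Pgants were smaller parts in SG. Pgant4 held 3.73, 0.142 and 0.102% in SG, against 17.1, 14.0 and 15.9% in B-D, so on this measure SG replicate 1 too was below every B-D library. Pgant9 held 5.77, 6.45 and 13.9% in SG, against 11.2, 12.1 and 11.7% in B-D, with SG replicate 3 above all others. Pgant3 held 2.86 ± 0.54% in SG and 6.68 ± 0.28% in B-D, and Pgant35A 0.545 ± 0.18% in SG and 2.72 ± 0.59% in B-D. With 3 libraries against 3, an exact two-sided permutation test cannot give a p below 0.1, so none of these shares could pass 0.05. The exact p was 0.1 for Pgant2, Pgant3, Pgant4, Pgant6, Pgant7 and Pgant35A (0.15 after adjustment over the 9 genes), 0.2 for Pgant5 and Pgant8 (0.225 adjusted), and 0.4 for Pgant9.

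**Figure D4:**
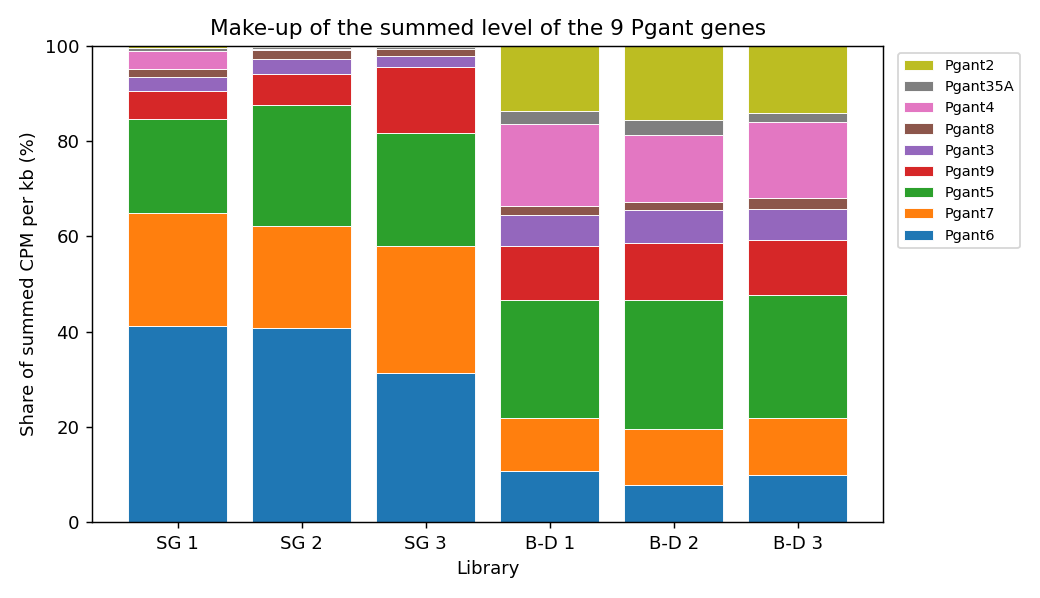
Stacked shares (%) of each of the 9 Pgant genes in their summed CPM per kb in each library, SG left of B-D. Pgant6, Pgant7 and Pgant5 filled most of each SG bar, Pgant2 and Pgant4 together took less than 5% of any SG bar, and in B-D no gene held more than 27.1%.

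Of 5 other genes of the GalNAc-transferase family that were counted, 2 had enough counts to be tested, and they differed in direction. Pgant1, another transferase of the same first step, stood at 577, 483 and 800 CPM in SG, against 24.4, 26.5 and 33.7 CPM in B-D (log2 fold change 4.46 with an SE of 0.26, adjusted p = 5.05e-05), a separation as wide as that of Pgant6. CG31776, which lies next to Pgant4 on the same strand (2L, 3470182 to 3472364), was lower in SG, with 0.92, 1.13 and 1.83 CPM in SG, against 4.26, 4.93 and 4.76 CPM in B-D (log2 fold change -1.85 with an SE of 0.29, adjusted p = 1.55e-03). It did not share the high value of Pgant4 in SG replicate 1. CG10000, CG7304 and CG7579 had at most 5 counts in any library and were not tested. CG7304 and CG7579 lie beside Pgant8 on 3L, which had 12.8 CPM or more in every SG library. When shares were recomputed over all 14 family genes, an alternative added after the data had been seen, Pgant1 held 33.9 ± 2.59% in SG and 10.5 ± 1.35% in B-D, and Pgant6 24.9 ± 3.44% in SG and 8.25 ± 1.33% in B-D.

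Genes related to C1GalTA did not move as one. Of 8 that were counted, 7 were tested, with a median log2 fold change of -0.44. Over all genes tested 34.5% were called higher and 35.3% lower. Of the 7 related genes, 3 were called higher in SG, 2 lower and 2 neither. CG8708 was the highest of them in SG, at 280, 364 and 290 CPM, against 6.17, 3.18 and 6.56 CPM in B-D (difference 5.87 ± 0.35 on the log2 scale, SE, adjusted p = 5.59e-05). Per length it averaged 167 CPM per kb in SG and 2.85 CPM per kb in B-D, while C1GalTA averaged 2.52 CPM per kb in SG and 17.8 CPM per kb in B-D, so the gene with the higher level of the pair differed between tissues. CG2975 (log2 fold change 2.16 ± 0.24, SE) and CG18558 (2.82 ± 0.56) were also called higher in SG, both at under 4 CPM in every library. CG18558 had only 11, 9 and 19 counts in SG, against 4, 1 and 7 in B-D, so it was near the floor. It had too few counts to be tested without SG replicate 1. CG34056 (-1.05 ± 0.15) and CG34057 (-0.84 ± 0.19) were called lower in SG, and CG3119 (-0.44 ± 0.43, adjusted p = 0.38) was not called. CG2983 was too low to be tested.

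The 7th tested gene of that list, tgy, stood at 3.72, 0.06 and 0.15 CPM in SG, against 3.55, 2.47 and 3.82 CPM in B-D, the same split of the SG libraries that Pgant4 showed. It was not called over all libraries (log2 fold change -1.31 ± 1.25, SE, adjusted p = 0.369) and was called lower without SG replicate 1 (-4.91, adjusted p = 7.69e-04).

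Genes that cap or link glycans with glucuronic acid were tested as a list of 3. GlcAT-P, which can cap the core 1 glycan, stood at 233, 315 and 216 CPM in SG, against 53.0, 53.7 and 58.9 CPM in B-D (log2 fold change 2.21 with an SE of 0.17, adjusted p = 1.03e-04). GlcAT-I, which completes the linker of proteoglycans rather than a mucin-type chain, was also higher in SG, with 44.3, 40.3 and 42.5 CPM in SG, against 6.16, 5.66 and 6.56 CPM in B-D (2.79 ± 0.10, adjusted p = 2.76e-05). GlcAT-S, a relative of GlcAT-P, had a log2 fold change of -0.50 ± 0.12 (SE) with an adjusted p of 9.25e-03. That value is -0.497 and just inside the fold limit of 0.5, so the gene was not called.

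The donor sugars of both steps are made in the cytosol and carried into the Golgi. All 10 genes of UDP-sugar synthesis that were tested were called higher in SG, with a median log2 fold change of 2.37, and 9 of 10 with library size alone. Over all genes tested, 34.5% were called higher, and 14.0% with library size alone. Galk, the galactokinase, had a log2 fold change of 4.70 ± 0.19 (SE, adjusted p = 3.04e-05). It was followed by mmy, which makes UDP-N-acetylglucosamine (2.48 ± 0.10, adjusted p = 3.09e-05), and by Gfat1, which opens the hexosamine pathway (2.23 ± 0.12, adjusted p = 4.15e-05). Of a list of nucleotide-sugar transporters and related carriers, 5 of 5 tested were called higher, with a median of 2.13, and 3 of 5 with library size alone. The list is not limited to carriers of the donor sugars of both steps. Those with the smallest p-values were sll, the carrier of the sulfate donor PAPS (2.72 ± 0.17, adjusted p = 5.82e-05), meigo, a carrier of the endoplasmic reticulum (2.13 ± 0.17, adjusted p = 1.33e-04), and Efr (1.48 ± 0.12, adjusted p = 1.38e-04). The gene frc was listed at 0 in all 6 libraries, and its exons are wholly covered on the same strand by Coq4, so nothing can be said of its level.

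A list of mucins, glue genes and other known or mucin-like substrates showed both directions. Of 24 tested, 6 were called higher in SG, 3 lower and 15 neither, with a median log2 fold change of 1.29. Over all genes tested, 34.5% were called higher and 35.3% lower. Mur2B, a mucin-related gene, had 93.6, 78.3 and 77.7 CPM in SG, against 13.0, 13.0 and 14.4 CPM in B-D (log2 fold change 2.62 with an SE of 0.11, adjusted p = 3.14e-05). Hemomucin, Hmu, had 428, 423 and 472 CPM in SG, against 108, 109 and 106 CPM in B-D (2.03 ± 0.09, adjusted p = 3.14e-05). Muc12Ea was lower in SG, at 0.19, 0.13 and 0.20 CPM, against 4.70, 6.12 and 5.58 CPM in B-D (-4.95 ± 0.26, adjusted p = 4.15e-05). The 7 glue genes named above are in this list. Without SG replicate 1, 13 of the list were called higher and 6 lower, against 33.6% and 34.9% of all genes in that fit. Of the glue genes, Sgs3 was the only one called over all libraries (7.50 ± 2.72, adjusted p = 0.0442), and all 7 were called higher without that library.

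**Figure D5:**
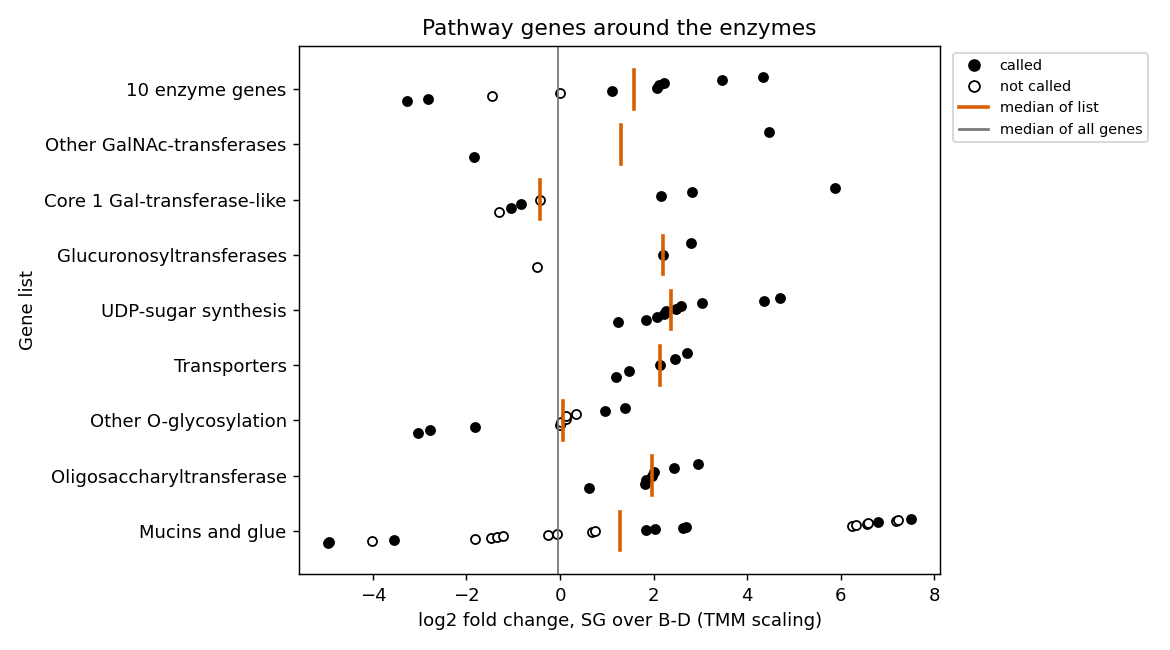
Log2 fold change of SG over B-D (TMM scaling) of each tested gene of 9 lists, filled where called and open where not, with the median of each list (orange) and of all genes tested (grey line). All points of UDP-sugar synthesis, the transporters and the oligosaccharyltransferase list are filled and to the right of 0 (with library size only, Stt3A of the last list stood at -0.48), while the enzyme genes and the core 1 list spread over both sides.

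The genes whose pattern over the 6 libraries was most like that of Pgant6, which had the highest level per length in SG of the 10 enzyme genes, were found by the Euclidean distance between log2 CPM values centred on each gene's mean. Near it were CNT2 (0.35), CR43186 (0.38), Cyp4p3 (0.39) and CG7872 (0.40). The same search for Pgant4 and Pgant9 was added after their values had been seen. For Pgant4 the nearest genes were tgy (0.56), Mco4 (0.58), CG34451 (0.73), CG9988 (0.74) and CG13806 (0.79). For Pgant9 they were CG32091 (0.43), lncRNA:CR43461 (0.45), CG34220 (0.48), lncRNA:CR46194 (0.55) and cbs (0.65), none of which is a glue gene. Distances describe 6 libraries only.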

How the data were processed

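Polyadenylated RNA of 6 libraries was sequenced as single-end reads from strand-marked TruSeq libraries. By the submitters' notes and the study's methods, quality was checked in FastQC 0.11.5, STAR 2.6.1a mapped the reads to Release 6 of the genome, and featureCounts assigned them to exons. How strand and multiply mapped reads were handled is not given in the sources used here, so counts of overlapping or near-identical genes are uncertain. The authors deposited raw counts per gene, with no normalization and with an exon length for each gene. They also deposited the results of their own comparison of the tissues (mean, log2 fold change, p and adjusted p), which were not used. Groups and replicate numbers came from the sample titles.

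Counts were analysed in R 4.3.3 with edgeR 4.0.16 (filterByExpr, TMM, glmQLFit and glmQLFTest, tissue as the only term, Benjamini-Hochberg adjustment over all genes tested). The thresholds were those of the study's methods. Standard errors derive from the F statistic. Shares were compared by exact permutation over libraries. Positions and overlaps came from the reference annotation of the Release 6 assembly, whose exon lengths equalled those in the count table for all 10 genes. The floor of 3 counts covers counting error only. Replicate pairs differed by 38.0 to 539 in chi-square per degree of freedom, so no 2 libraries held the same values. The scripts were tested on simulated data. Alternatives were other scalings, no filter on low counts, DESeq2 1.42.0, limma-voom (limma 3.58.1), a replicate block, leaving out each library, and SG replicate 2 alone. The members and gene lists were chosen with earlier results of these data known. All 10 members were named, as was every tested gene of both enzyme family lists and of the glucuronosyltransferases. From each other list the called genes with the 3 smallest p-values were named, and for the pattern search the 5 nearest genes, of which 1 is not reported here. Tango1, the glue genes, the peritrophic matrix genes, fkh, Fbp1, eyg and Stt3A were named after their values had been seen.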

Additional observations from a re-analysis of the deposited data

How the results depend on the processing

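The counts of members called (6 higher and 2 lower in SG) stayed at 6 and 2 with the other size factors, upper quartile scaling, no filter on low counts, DESeq2 and a replicate block. With library size only they were 4 and 3, with limma-voom and with SG replicate 2 alone 6 and 3, and over the 6 fits that each left out one library the count called higher was 6 throughout and the count called lower was 2 to 3. Of 140 values of single members under the alternatives, 126 kept their direction and their side of the threshold. The log2 fold change of Pgant35A, which lay at 0.002, changed sign in 9 alternatives, and it was called in only 1 of them, library size only (-1.10). It stood at -0.011 with the other size factors, -0.19 with upper quartile scaling, -0.047 with no filter, -0.0090 with DESeq2 and -0.32 with SG replicate 2 alone, and it ran between -0.12 and 0.17 when single libraries were left out. Pgant3 (0.02) and Pgant9 (1.04) lost their call with library size only, and Pgant4 was called lower with limma-voom (-2.94), without SG replicate 1 (-4.53) and with SG replicate 2 alone (-4.63). With library size only, 1588 genes were called higher and 7111 lower, against 3924 and 4010 with TMM. Among the lists, genes of the mucin and glue list called higher numbered 12 with DESeq2 and with the replicate block. Genes of that list called lower numbered 5 with library size only and 6 with limma-voom. Core 1 relatives called higher numbered 2 without SG replicate 1, without B-D replicate 1 and without B-D replicate 3, against 3 in the main fit. Those called lower numbered 3 with library size only, with limma-voom, without SG replicate 1 and without SG replicate 3, against 2 in the main fit. With SG replicate 2 alone, more genes of the core 1 list and of the mucin and glue list were called lower than in the main fit. Those counts rest on 1 SG library and are not given here. GlcAT-S was called lower in 9 of the alternatives. The causes were not tested.

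Replicate numbers are the same in both tissues, and the study's methods describe both tissues as from the same larvae. Whether a number names the same larvae is not given in the sources used here, so the main fit was unpaired. Deviations of same-numbered libraries from their tissue means correlated at 0.33, 0.08 and 0.22, which cannot decide whether they are paired. With the replicate block, 3893 genes were called higher and 3985 lower, and no member changed its call (Pgant4 had a log2 fold change of -3.11 with an adjusted p of 0.0912). With 3 libraries a tissue, the exact tests of shares could not pass 0.05, all 72 share differences under the alternatives kept their direction, and neither the depth nor the floor limited any member.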

Other observations

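All 7 tested subunits of the oligosaccharyltransferase, which attaches N-linked glycans, were called higher in SG, with a median log2 fold change of 1.96, and 6 of 7 were with library size only, where Stt3A stood at -0.48. Ostgamma had a log2 fold change of 2.96 ± 0.11 (SE, adjusted p = 2.76e-05), Stt3B of 2.44 ± 0.10 (adjusted p = 3.09e-05) and Dad1 of 2.00 ± 0.09 (adjusted p = 3.09e-05). Over all genes tested, 34.5% were called higher, and 14.0% with library size only.

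Of 10 genes for other kinds of protein O-glycosylation, 2 were called higher in SG, 3 lower and 5 neither, with a median log2 fold change of 0.07. The shares over all genes tested were 34.5% higher and 35.3% lower. The lower genes included fng, which extends O-fucose on Notch (-3.04 ± 0.22, SE, adjusted p = 9.22e-05), and tw, a subunit of the protein O-mannosyltransferase (-2.79 ± 0.20, adjusted p = 8.75e-05). The xylosyltransferase oxt, which starts proteoglycan chains, was called higher (1.39 ± 0.11, adjusted p = 1.04e-04). With library size only, none of the 10 was called higher and 8 were called lower, against 14.0% and 62.5% of all genes. Without B-D replicate 2 or without B-D replicate 3 the count called higher was 1.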
